A study of Mus musculus with 36 samples.

Results

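The HSP70 and HSP110 chaperones were followed here in mouse liver after a dose of acetaminophen, a common pain drug of which a breakdown product can damage liver cells. Members were the probe sets (groups of short probes that read 1 transcript) annotated to 1 of 8 genes: Hspa1a, Hspa1b, Hspa8, Hspa9, Hspa14, Hspa4, Hspa4l and Hsph1. They numbered 27 of 45037 probe sets that are no controls, and the 8 genes are among 18193 with a probe set of their own. Of the 27, 26 passed the filter on dim signals. The probe set that did not pass, 1439826_at of Hspa14, lay between 3.89 and 18.6 on the 36 arrays, none of them above the median of all values, 30.8. All 8 genes were tested through another probe set, among 14057 genes in all.

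The samples were 36 Affymetrix arrays of liver RNA with 1 mouse each, in 12 groups of 3 mice. The strains are labelled SJL, SMJ, DBA and C57 (named in the series' design as SJL, SmJ, DBA/2 and C57B6), and the series calls SJL resistant and the other 3 sensitive. All mice were fasted overnight; 1 injection of 300 mg/kg acetaminophen into the abdomen followed, and livers represent the state ahead of dosing (0 h) and 3 h and 6 h after it. No vehicle group at 3 h or 6 h was analysed here, so the length of the fast and the time of day cannot be told apart from the drug. Age and sex are not given in the sources used here. A mouse is named by strain and number, as SJL39, and each time used different mice.

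HSP70 proteins bind unfolded stretches of other proteins and let go of them in a cycle driven by ATP. J-domain proteins start the cycle by speeding ATP hydrolysis, and nucleotide exchange factors, among them the HSP110 proteins, end it by releasing ADP. Some members are made at all times, while others are switched on by heat shock factors when proteins unfold, as happens when reactive metabolites of a drug attach to liver proteins. Hspa1a and Hspa1b are the stress-inducible cytosolic HSP70 genes, Hspa8 is the cytosolic member made at all times, Hspa9 works in mitochondria, Hspa14 sits on ribosomes, and Hspa4, Hspa4l and Hsph1 belong to the HSP110 branch.

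Hspa1b and Hspa1a lie next to each other on mouse chromosome 17 with 10120 bases between them (RefSeq, GRCm38.p6), at chr17:34956429-34959238 and chr17:34969359-34972156. Their upstream sequences are shown because the pair is near-identical and, by the probe sets that stand for the 8 genes, had the largest rises at 6 h over the 4 strains. The 250 bases before each start are chr17:34972157-34972406 for Hspa1a and chr17:34959239-34959488 for Hspa1b, both on the minus strand. Capitals mark a match to GAANNTTC, a pair of the GAA units that heat shock factors bind, read on either strand:
Hspa1a: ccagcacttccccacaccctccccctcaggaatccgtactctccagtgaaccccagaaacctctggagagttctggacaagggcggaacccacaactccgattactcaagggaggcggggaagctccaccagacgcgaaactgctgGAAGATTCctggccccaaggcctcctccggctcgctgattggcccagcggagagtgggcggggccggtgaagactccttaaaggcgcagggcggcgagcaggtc
Hspa1b: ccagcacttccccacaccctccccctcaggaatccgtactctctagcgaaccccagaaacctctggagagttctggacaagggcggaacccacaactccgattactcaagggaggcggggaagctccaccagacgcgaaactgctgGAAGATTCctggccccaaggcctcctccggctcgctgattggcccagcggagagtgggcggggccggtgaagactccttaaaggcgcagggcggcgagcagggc
The windows match at 247 of 250 bases. Counted from 1 at the 5′ end and from Hspa1a to Hspa1b, the differences are C44T, T47C and T249G, all outside the capitals, which begin 104 bases before the start in each gene. Of 32817 mouse promoter windows of this length, 6.69% hold GAANNTTC.

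The Hsph1 promoter is shown for the same motif in its other orientation, TTCNNGAA, which 7.16% of the windows hold. The 30 bases around its match, in capitals, are chr5:149636351-149636380 on the minus strand, and the match begins 33 or 54 bases before the start, by which of the gene's 2 RefSeq windows is used:
Hsph1: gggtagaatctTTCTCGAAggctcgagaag
No match to either form was found in the windows of Hspa4, Hspa4l or Hspa14, and the 3-unit form, GAANNTTC followed by NNGAA, was found on either strand in none of the 6 genes with a window (0.466% of all windows hold it). Hspa8 and Hspa9 were not searched. A match is only a run of letters, and its absence from a window says nothing of the factor.

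In the mean of the 4 strains, the probe sets that stand for 5 of the 8 genes were higher at 6 h than at 0 h: those of Hspa1a, Hspa1b, Hsph1, Hspa8 and Hspa4. None of the 8 was lower, but 2 other probe sets of Hspa4 were, so Hspa4 is given no direction as a gene. Of all genes tested, 12.7% were higher and 33.1% were called in either direction (limma, Benjamini-Hochberg adjusted p under 0.05). The rise in that mean was 20.1-fold for Hspa1a and 3.22-fold for Hspa1b, and the median change of the 8 was 0.38 against −0.05 for all genes. In C57 alone the log2 changes of Hspa1b (−1.62), Hsph1 (−0.44) and Hspa8 (−0.26) were negative and not called. Changes are of log2(signal + 2.77), with SE, and understate the change of dim genes. At 3 h, 2 members were higher by these probe sets, Hspa1a and Hspa1b, and none lower, against 3.16% of all genes higher and 7.20% in either direction. With each array divided by its 75th percentile the called genes split into 588 higher and 397 lower, against 444 and 568 as reported. Also at 3 h, 3 of the 4 Hspa8 probe sets and 1 of the 5 of Hspa9 were higher, and 1 of the 4 of Hspa4 was lower. With the mean of all probe sets of a gene, Hspa8 (0.54, adjusted p = 0.000588) and Hspa9 (0.30, adjusted p = 0.00836) were called higher at 3 h. Bulk liver cannot tell fewer cells of a type from less RNA per cell. Probe sets of the near-identical genes Hspa1a and Hspa1b may bind both transcripts, and each is given under its annotated name.

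Hspa1a, read by 1452388_at, was near the lower end of the scale before the dose in SJL, DBA and C57, and at 6 h it rose in SJL, SMJ and DBA. In SJL its signal was 22.5, 7.45 and 31.1 at 0 h, 22.0, 274 and 1285 at 3 h, and 3736, 4549 and 1217 at 6 h. In SMJ it was 649, 156 and 130 at 0 h, 646, 1206 and 1199 at 3 h, and 4156, 4815 and 5379 at 6 h. Every SMJ liver at 0 h lay above all 9 livers of the other strains at that time. DBA livers gave 22.4, 25.5 and 20.5 at 0 h, 103.2, 231.4 and 155 at 3 h, and 449, 1083 and 191 at 6 h. C57 livers gave 13.6, 37.6 and 40.1 at 0 h, 85.8, 38.99 and 38.9 at 3 h, and 75.8, 180.7 and 77.7 at 6 h. In all 4 strains the 3 arrays at 6 h lay above the 3 at 0 h. At 3 h SJL39 stayed within the SJL range at 0 h, while the other two SJL livers were well above it.

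The log2 change of Hspa1a over the 4 strains was 2.20 ± 0.45 at 3 h (adjusted p = 0.00202) and 4.33 ± 0.45 at 6 h (adjusted p = 2.83e-08), and 6 h was above 3 h by 2.13 (adjusted p = 0.00142). At 6 h it rose in SJL by 7.06 ± 0.89 (adjusted p = 5.99e-06), in SMJ by 4.31 (adjusted p = 0.000915) and in DBA by 4.16 (adjusted p = 0.00241). The C57 change, 1.78 ± 0.89, did not pass (adjusted p = 0.222), although its arrays did not overlap. By mean signal at 6 h the order was SMJ (4783 ± 612), SJL (3167 ± 1737), DBA (574 ± 459) and C57 (111 ± 60.0; SD, n = 3 each). SMJ and SJL overlapped, and the other neighbours in that order did not, by a narrow gap between DBA169 at 191 and the highest C57 liver at 180.7. The difference between strains in the 6 h change of Hspa1a was not called in C57 against the other 3 strains (−3.39, adjusted p = 0.0564). It was called with an offset of 16 (adjusted p = 0.0316) and with each array divided by its 75th percentile (adjusted p = 0.0479). The same held where 12 arrays had to exceed the median (adjusted p = 0.0458). Leaving out any 1 of SJL39, SJL42, SJL48, SMJ56 or DBA169 also gave a call (adjusted p up to 0.0449).

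**Figure D1:**
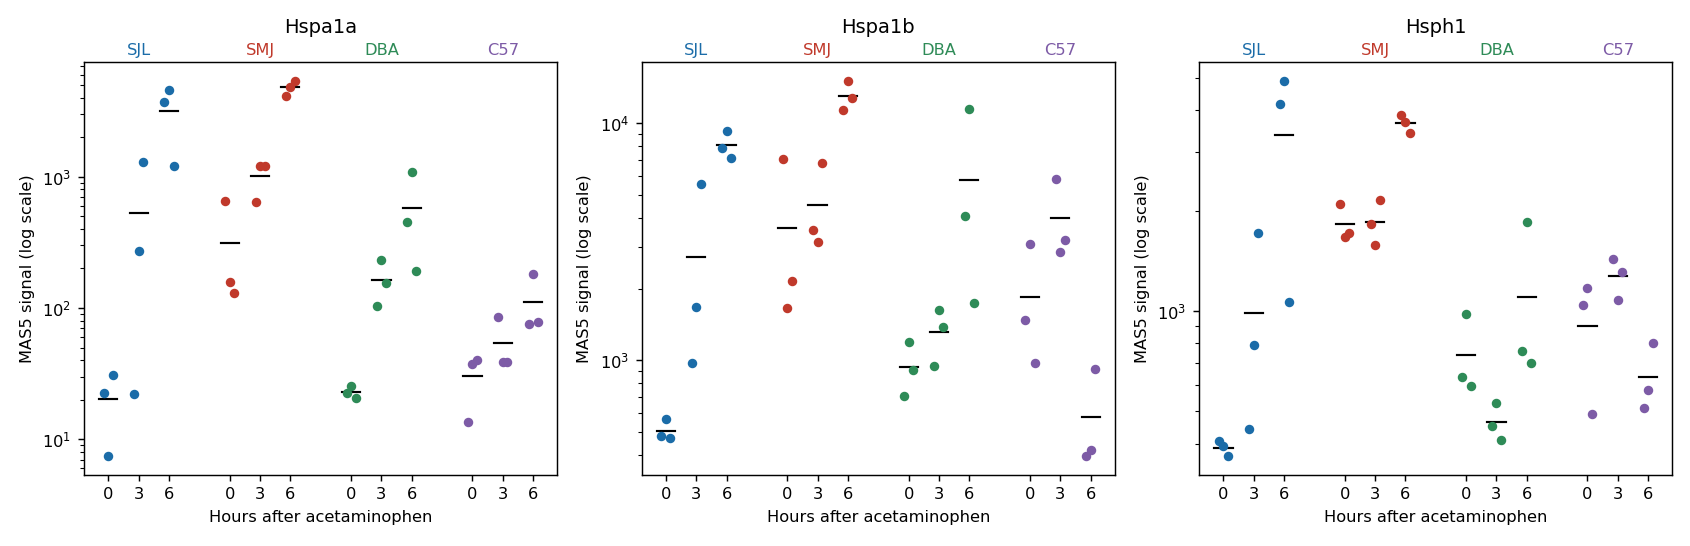
MAS5 signal on a log axis of Hspa1a, Hspa1b and Hsph1 against hours after acetaminophen, with 3 points per group (1 mouse each) and a bar at the group mean, by strain. The 3 Hspa1a points at 6 h lie above the 3 at 0 h in every strain, while Hspa1b in C57 lies between 394 and 915 at 6 h, below its 3 livers at 0 h, which lie between 973 and 3089.

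Hspa1b, read by 1452318_a_at, rose at 6 h in SJL, SMJ and DBA and was not called in C57. In SJL it measured 477, 566 and 471 at 0 h, 978, 1672 and 5559 at 3 h, and 7836, 9276 and 7167 at 6 h. In SMJ it measured 7058, 1665 and 2170 at 0 h, 3561, 3156 and 6825 at 3 h, and 11388, 15131 and 12783 at 6 h. The high 0 h liver is SMJ56, which was also the highest of its group for Hspa1a. DBA livers gave 705, 1193 and 908 at 0 h, 947, 1626 and 1382 at 3 h, and 4069, 11473 and 1754 at 6 h. C57 livers gave 1479, 3089 and 973 at 0 h, 5847, 2858 and 3211 at 3 h, and 394, 416 and 915 at 6 h. In SJL, SMJ and DBA all livers at 6 h were above all at 0 h, and in C57 all at 6 h were below all at 0 h and at 3 h.

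The log2 change of Hspa1b over the 4 strains was 1.07 ± 0.30 at 3 h (adjusted p = 0.0278) and 1.69 ± 0.30 at 6 h (adjusted p = 7.66e-05). The 3 h call was lost without any 1 of SJL42, SMJ57, SMJ58, SMJ98, DBA113, DBA159, C57182 or C57226, with adjusted p up to 0.0603. At 6 h Hspa1b rose in SJL by 3.99 ± 0.60 (adjusted p = 6.86e-05), in SMJ by 2.14 (adjusted p = 0.0110) and in DBA by 2.25 (adjusted p = 0.0129). The SMJ call was lost without SMJ57 or SMJ58 (adjusted p up to 0.0769), and the DBA call without DBA113 or DBA168 (adjusted p up to 0.130). In C57 the change from before the dose was −1.62 ± 0.60 and did not pass (adjusted p = 0.0857), but 6 h was below 3 h by a log2 of −2.82 ± 0.60 (7.06-fold, adjusted p = 0.00556). All 3 Hspa1b probe sets were lower at 6 h than at 3 h in C57, by −2.82, −2.78 and −2.57.

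The strains differed in how Hspa1b changed. A moderated F test across strains and both later times gave an adjusted p of 0.000933, and at 6 h alone the C57 change was below the mean change of the other 3 strains by −4.42 ± 0.69 (adjusted p = 0.000514). The SJL change at 6 h was above that of the other 3 by 3.07 ± 0.69 (adjusted p = 0.0494). That SJL call was lost when any 1 of 28 of the 36 arrays was left out (adjusted p up to 0.179), whereas no single array ended the C57 call. In C57 at 6 h, then, the Hspa1a reading was above its 0 h range and the Hspa1b reading below it, neither change being called and their difference not tested. Probe sets of this pair may bind both transcripts.

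Hsph1, the inducible member of the HSP110 branch, was read by 1425993_a_at. In SJL it measured 406, 393 and 367 at 0 h, 442, 788 and 1719 at 3 h, and 4168, 4903 and 1063 at 6 h. In SMJ it measured 2093, 1671 and 1716 at 0 h, 1822, 1581 and 2146 at 3 h, and 3870, 3687 and 3427 at 6 h. Livers at 6 h were above those at 0 h without overlap in both strains. DBA livers gave 635, 980 and 596 at 0 h, 451, 531 and 410 at 3 h, and 759, 1852 and 697 at 6 h. C57 livers gave 1039, 1173 and 490 at 0 h, 1431, 1078 and 1313 at 3 h, and 511, 581 and 804 at 6 h. In DBA and C57 the livers at 6 h overlapped those at 0 h.

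Over the 4 strains Hsph1 was higher at 6 h than at 0 h by 0.97 ± 0.23 (adjusted p = 0.00145) and than at 3 h by 0.70 (adjusted p = 0.0337). The second call was lost without any 1 of SJL39, SJL40, SJL44, SJL45, SMJ96, DBA160, DBA168, C57230 or C57237 (adjusted p up to 0.0752). It rose in SJL at 6 h by 2.84 ± 0.45 (adjusted p = 0.000155) and did not pass in SMJ (1.008, adjusted p = 0.119), DBA (0.47, adjusted p = 0.580) or C57 (−0.44, adjusted p = 0.611). With only the compared groups in the fit, the SJL change did not pass (adjusted p = 0.0800). The SMJ change passed there (adjusted p = 0.0240). The strains differed in the change of Hsph1 (F test, adjusted p = 0.0104). At 6 h the SJL change was above the mean of the others by 2.49 ± 0.52 (adjusted p = 0.0338) and the C57 change below it by −1.88 ± 0.52 (adjusted p = 0.0374). The SJL call was lost without any 1 of SJL1, SJL2, SJL4, SJL44, SJL45, DBA169 or C57180, and the C57 call without any 1 of SJL44, SJL45, DBA113, DBA115, C57180, C57181, C57233 or C57236, with adjusted p up to 0.179 and 0.103.

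Hspa8 is the cytosolic member made at all times. Its signals by 1420622_a_at in SJL were 3017, 3416 and 3348 at 0 h, 3673, 4541 and 4508 at 3 h, and 5756, 7474 and 7583 at 6 h, so that each later time lay above the one before without overlap. In SMJ they were 7673, 5175 and 4532 at 0 h, 6777, 3928 and 6010 at 3 h, and 5627, 9959 and 7849 at 6 h, with overlap throughout. DBA ranged from 4885 to 5245 at 0 h, from 5059 to 6934 at 3 h and from 6899 to 7004 at 6 h. C57 ranged from 5482 to 6239 at 0 h, from 5455 to 8735 at 3 h and from 4131 to 6059 at 6 h. The DBA arrays at 6 h did not overlap those at 0 h, and C57 overlapped. By this probe set the change did not pass in DBA (0.47, adjusted p = 0.176) or SMJ (0.43, adjusted p = 0.177). With the mean of all Hspa8 probe sets it was called in DBA (0.96, adjusted p = 0.00172) and SMJ (0.99, adjusted p = 0.000669). Taken singly, 3 of the 4 probe sets were called higher in DBA, 3 in SMJ and 0 in C57. By 1420622_a_at the change at 6 h over the 4 strains was 0.43 ± 0.11 (adjusted p = 0.00312), and it was 0.20 and not called after quantile normalization (adjusted p = 0.149). Hspa8 rose in SJL by 1.08 ± 0.22 (adjusted p = 0.00215). The C57 change was below that of the other 3 strains by −0.92 ± 0.25 (adjusted p = 0.0343), a call that was lost without any 1 of C57180, C57181, C57182, C57236 or C57237 (adjusted p up to 0.108).

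The other HSP110 genes, Hspa4 and Hspa4l, were each read by several probe sets. Hspa4 by 1416146_at measured 782, 891 and 822 at 0 h, 826, 1176 and 1020 at 3 h, and 1332, 1135 and 1177 at 6 h in SJL. Its group means in the other strains lay between 897 and 1255 at all times. Hspa4 was called higher at 6 h over the 4 strains (0.34 ± 0.07, adjusted p = 0.000590), in SJL (0.54, adjusted p = 0.0197) and in SMJ (0.43, adjusted p = 0.0347). With the mean of all its probe sets the change over the 4 strains was −0.01 (adjusted p = 0.955), and in SMJ −0.49 (adjusted p = 0.0724). The SJL call was lost without SJL1, SJL4 or SJL44 and the SMJ call without SMJ57, SMJ58, SMJ101 or SMJ102 (adjusted p up to 0.0897 and 0.200).

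The 4 tested Hspa4 probe sets went different ways. At 6 h over the 4 strains 1416146_at (0.34 ± 0.07) and 1440575_at (0.97 ± 0.35) were higher, while 1416147_at (−0.69 ± 0.11) and 1435194_at (−0.66 ± 0.09) were lower, all past the threshold over 30393 probe sets. Of these, 1440575_at was dim, with signals between 2.60 and 60.3 and 13 of the 36 arrays above the median of 30.8. The mean signal of 1416147_at in SMJ was 95.4 ± 15.7 at 6 h against 199 ± 43.0 at 0 h, and in SJL 97.2 ± 18.6 at 6 h against 158.5 ± 31.1 at 0 h (SD, n = 3 each). Across the 36 arrays 1416146_at and 1416147_at had a Pearson r of −0.51, and 1416147_at and 1435194_at an r of 0.77. No direction is therefore given for Hspa4 as a gene; which transcripts or parts of them each probe set reads was not tested.

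Hspa4l, by 1418253_a_at, stood out for its level before the dose. SMJ livers measured 310, 358 and 434 at 0 h, above all 9 others, and SJL livers measured 108, 121 and 90.8, below all 9 others. DBA measured 147, 193 and 126 and C57 236.7, 272 and 148, and those 2 strains overlapped. After the dose SMJ ranged from 253 to 320 at 3 h and from 251 to 280 at 6 h, SJL from 142 to 164 and from 97.6 to 159.01, DBA from 95.6 to 113.1 and from 107 to 123, and C57 from 291 to 325 and from 133 to 211. In C57 6 h was below 3 h by −0.88 ± 0.20 (adjusted p = 0.0103), lost without C57231, C57233 or C57236 (adjusted p up to 0.0793). The strains differed in the change of Hspa4l (F test, adjusted p = 0.0275), a call lost without SJL4, DBA159 or C57231 (adjusted p up to 0.0588).

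Hspa9, the mitochondrial HSP70, and Hspa14, on ribosomes, were not called in any comparison of times by the probe sets that stand for them. Hspa9 by 1418504_at lay between 2327 and 3849 on all 36 arrays, with a change at 6 h of 0.12 ± 0.06 (adjusted p = 0.122). That change was called with each array divided by its 75th percentile (0.17, adjusted p = 0.0463) and without SMJ56 (0.15, adjusted p = 0.0413). Hspa14 by 1448586_at lay between 93.7 and 252, with a change of 0.24 ± 0.11 (adjusted p = 0.107). Without SJL42 Hspa14 was called higher in SJL at 3 h (0.85, adjusted p = 0.00772). Over the 4 strains it was then called at 3 h (0.33, adjusted p = 0.0344) and at 6 h (0.24, adjusted p = 0.0486). The other tested Hspa14 probe set, 1417095_a_at, lay between 11.2 and 75.9. Its mean was lower at 6 h than at 0 h in each strain, and its change over the 4 strains at 6 h was not called. With the mean of all its probe sets Hspa9 was called higher at 6 h (0.30, adjusted p = 0.00219); of those probe sets 1453811_at rose by 1.02 ± 0.33, at signals between 3.13 and 60.7. Another, 1431274_a_at, read 159.2 to 199 in C57 at 0 h and was lower in C57 than in the other 3 strains (−0.70, adjusted p = 0.00423), while 1418504_at showed no called difference for C57.

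**Figure D2:**
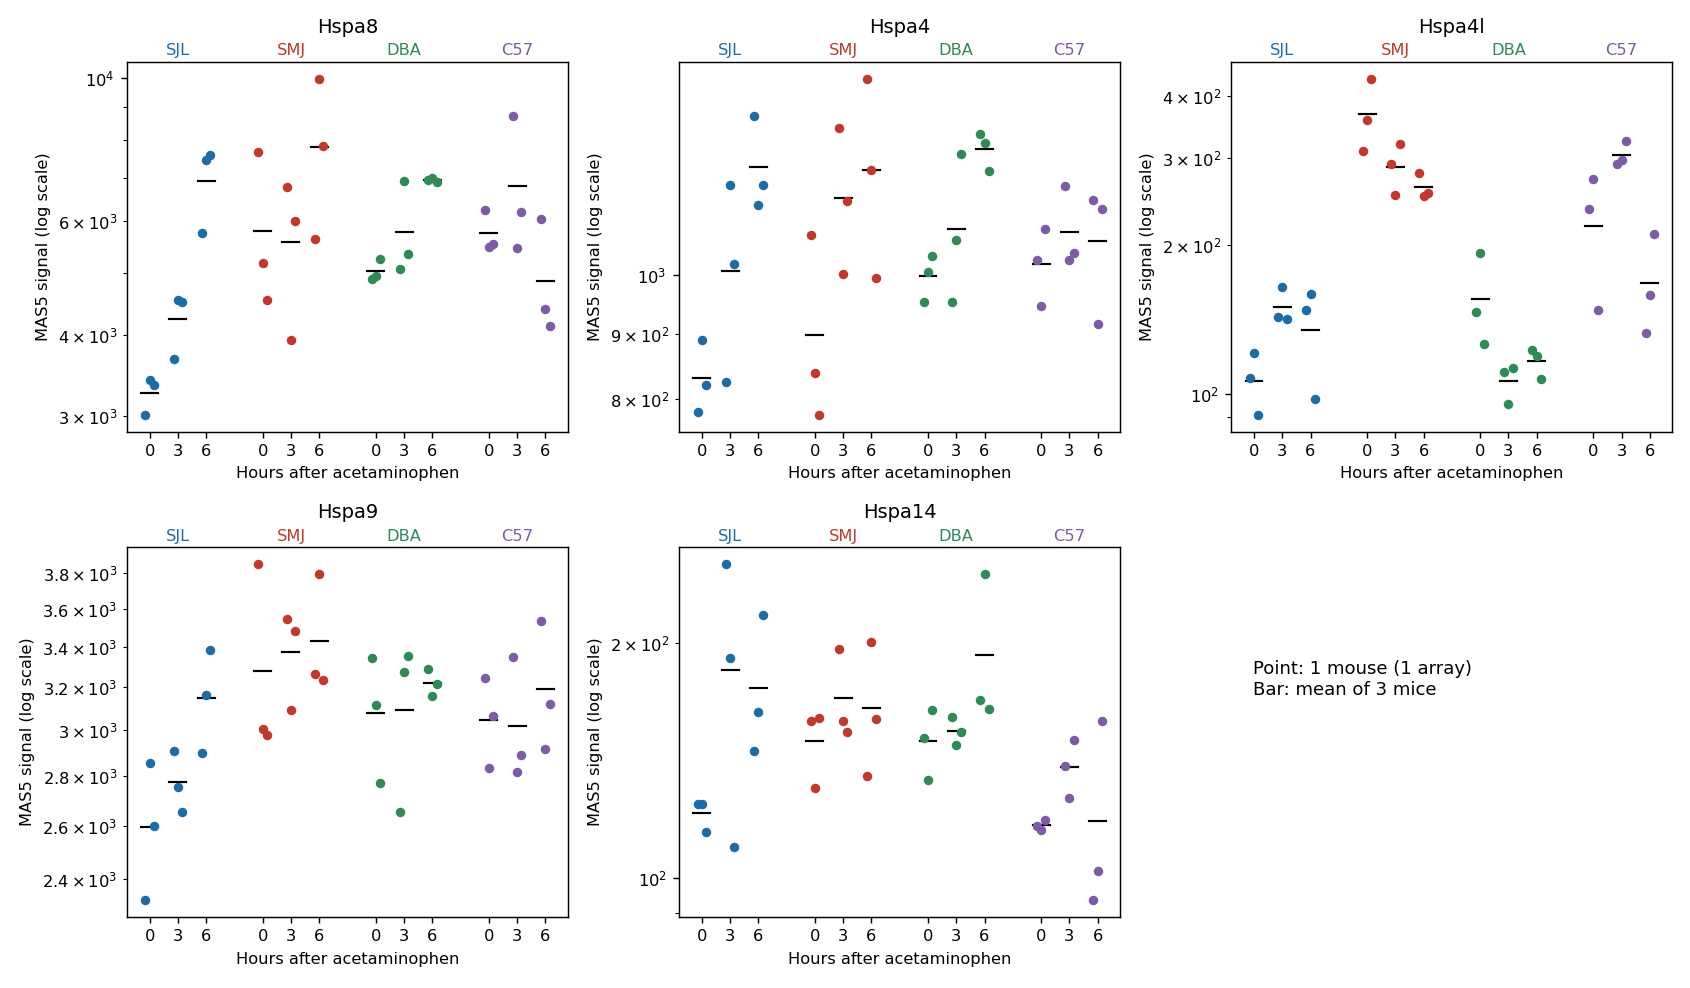
MAS5 signal on a log axis of Hspa8, Hspa4, Hspa4l, Hspa9 and Hspa14 against hours after acetaminophen, 1 point per mouse and a bar at the mean of 3. SMJ holds the highest Hspa4l signals at 0 h, 310 to 434, and SJL the lowest, 90.8 to 121, while Hspa9 stays between 2327 and 3849 throughout.

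Strain by strain at 6 h, the members called higher by the probe set that stands for them were 5 in SJL, 3 in SMJ and 2 in DBA, and none was lower. The SJL and SMJ counts include Hspa4, of which 1 probe set was higher and 2 were lower in SMJ. The shares of all genes higher were 3.66% in SJL, 8.79% in SMJ and 4.82% in DBA. In C57 no member was called by limma, 1 had an unadjusted p under 0.05, and 10.3% of all genes were called in either direction. By arrays at 6 h against 0 h, all 3 lay above all 3 for 7 members in SJL (11% of all genes), 3 in SMJ (15.1%), 5 in DBA (11.6%) and 1 in C57 (15%). They lay below for 1 member in each of SMJ (20.2% of all genes), DBA (21%) and C57 (13.8%). In DBA the called genes were 678 higher and 1089 lower, and 924 and 666 with each array divided by its 75th percentile. At 3 h the counts were 2 in SJL, where 4.47% of all genes were higher, and 0 in SMJ, DBA and C57, where 0.171%, 1.45% and 0.285% of all genes were called in either direction. At an unadjusted p under 0.05 those 3 strains had 2, 2 and 1 members. The SJL calls at 3 h were Hspa1a (3.32, adjusted p = 0.0158) and Hspa1b (2.05, adjusted p = 0.0277); Hspa1a was lost without SJL2, SJL40 or SJL42 and Hspa1b without SJL1, SJL2, SJL4 or SJL42 (adjusted p up to 0.130 and 0.170). SJL39 had the lowest correlations with its group (0.916 and 0.919), and without it Hsph1 also passed in SJL at 3 h (1.58, adjusted p = 0.0344).

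Between 3 h and 6 h, Hspa1a (3.73, adjusted p = 0.0245) and Hsph1 (1.72, adjusted p = 0.0427) were higher at 6 h in SJL, where 1.44% of all genes were. Hspa1a was lost there without SJL39, SJL44 or SJL45, and Hsph1 without any 1 of 14 arrays, with adjusted p up to 0.126 and 0.224. In C57 Hspa1b and Hspa4l were lower at 6 h, where 2.59% of all genes were. Over the 4 strains 6.94% of all genes were higher at 6 h than at 3 h, beside 2 members, Hspa1a and Hsph1. In SMJ and DBA limma called no member between 3 h and 6 h, 4 and 2 had an unadjusted p under 0.05, and 12.3% and 2.60% of all genes were called.

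**Figure D3:**
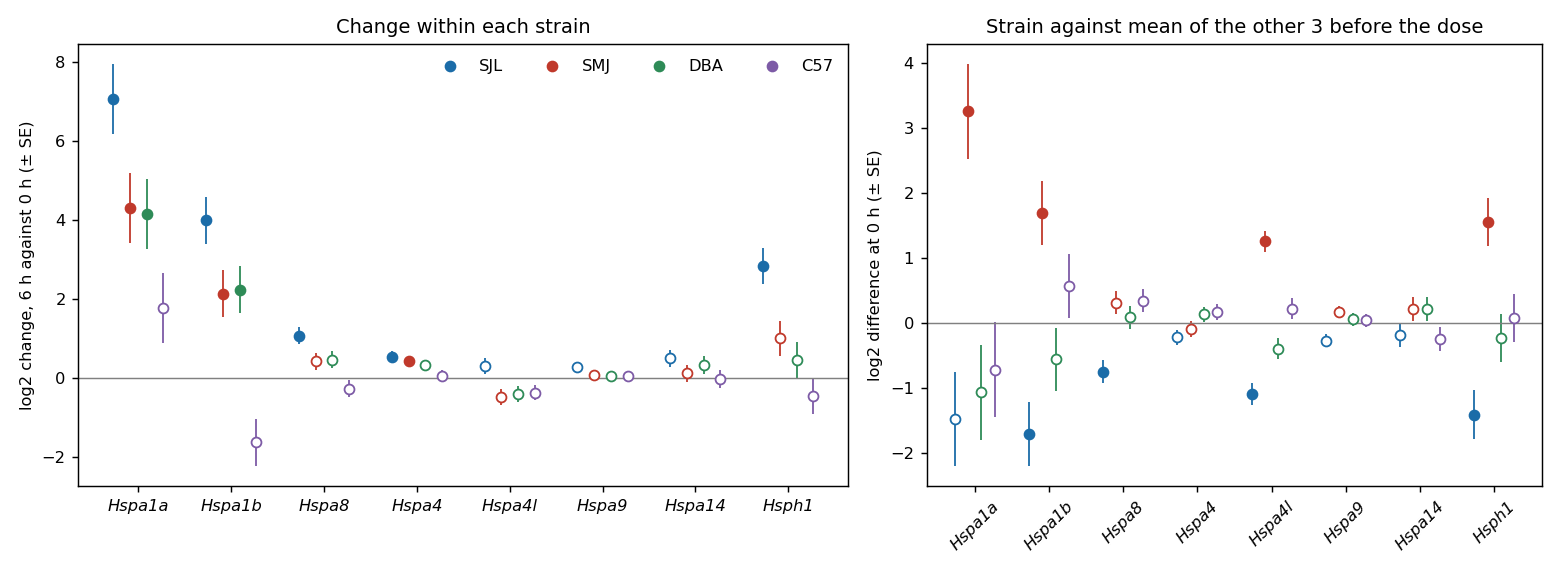
Left, log2 change at 6 h against 0 h of the 8 genes in each strain with SE; right, log2 difference at 0 h of each strain from the mean of the other 3 with SE; filled points passed an adjusted p of 0.05 and open ones did not. Hspa1a and Hspa1b are filled in SJL, SMJ and DBA and open in C57, and before the dose SMJ points lie above 0 for Hspa1a, Hspa1b, Hspa4l and Hsph1.

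Before the dose the strains already differed in 5 members: Hspa1a, Hspa1b, Hspa8, Hspa4l and Hsph1 (F test), where 26.5% of all genes differed. In that test the Hspa1a call was lost without SMJ56 (adjusted p = 0.108). The Hspa8 call was lost without SJL1 (adjusted p = 0.0803) and with the mean of all Hspa8 probe sets (adjusted p = 0.0780). SMJ livers were higher than the mean of the other 3 strains in 4, Hspa1a by 3.25 ± 0.73 (adjusted p = 0.00401), Hspa1b by 1.69 ± 0.49 (adjusted p = 0.0272), Hspa4l by 1.26 ± 0.16 (adjusted p = 8.54e-06) and Hsph1 by 1.55 ± 0.37 (adjusted p = 0.00675), against 4.67% of all genes. All 3 SMJ livers lay above the 9 others for Hspa1a, Hspa4l and Hsph1, as they did for 3.27% of all genes. Without SMJ56 Hspa1a was 2.53 and not called (adjusted p = 0.0605), and Hspa1b was lost without SMJ56 or SMJ58 (adjusted p up to 0.259). In DBA and C57 limma called no member against the mean of the other strains, where 10.4% and 12.2% of all genes were called and 1 and 0 members had an unadjusted p under 0.05. All 5 tested Hspa4l probe sets were higher in SMJ at 0 h, by 0.74 to 1.26.

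SJL livers were lower than the mean of the other 3 strains in 4 members, where 5.80% of all genes were. The differences were −1.70 ± 0.49 for Hspa1b (adjusted p = 0.0213), −0.75 ± 0.18 for Hspa8 (adjusted p = 0.00607), −1.09 ± 0.16 for Hspa4l (adjusted p = 5.73e-05) and −1.40 ± 0.37 for Hsph1 (adjusted p = 0.0121). For each of these 4 all 3 SJL livers lay below the 9 others, as they did for 3.55% of all genes. Hspa1b was lost without SJL1, SJL2 or SJL4 and Hsph1 without SJL2 or SJL4 (adjusted p up to 0.0887 and 0.0584). With the mean of all probe sets Hspa1b (−1.47, adjusted p = 0.0610) and Hspa8 (−0.38, adjusted p = 0.143) did not pass. The changes at 3 h and 6 h and the differences at 0 h all share the same 0 h arrays. At 6 h Hsph1 averaged 3378 ± 2038 in SJL and 3661 ± 222 in SMJ (SD, n = 3 each).

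The strain differences in change were called for 3 members (Hspa1b, Hspa4l and Hsph1), where 8.04% of all genes were called, and at 6 h alone for Hspa1b, Hspa8 and Hsph1, where 5.35% were. The Hspa8 call at 6 h (adjusted p = 0.0471) was lost without any 1 of 23 of the 36 arrays (adjusted p up to 0.107). The SJL change at 6 h was above the others for 2 members, with 0.270% of all genes, and the C57 change below them for 3, with 2.45%. Markers of liver cell types moved at 6 h in several strains. The summed signal of 10 endothelial markers was 6352 to 6758 at 6 h in C57 against 3934 to 4965 at 0 h, with 7 of 10 called higher, and limma called 0 of 8 hepatocyte markers there and 5 of 8, all higher, in SMJ at 6 h (Alb 10884 to 28847 on all arrays). The summed signal of 8 of the 10 neutrophil markers was 890 to 1128 at 6 h in C57 against 185 to 493 at 0 h, and 1194 to 2171 in SMJ at 6 h against 165 to 290 at 0 h. In DBA it was 415 to 964 at 6 h against 216 to 337 at 0 h, and in SJL 522 to 2485 at 6 h against 357 to 807 at 0 h. The summed signal of 12 Kupffer cell markers was 7748 to 8502 at 6 h in C57 against 5962 to 6847 at 0 h, 6561 to 7897 in DBA against 4646 to 4821, and 5461 to 6296 in SMJ against 4175 to 5066, with 1, 4 and 3 of 12 called higher. In SJL it was 7164 to 8691 at 6 h against 6769 to 8151 at 0 h, with overlap. Of all 14057 genes tested, 619 were higher at 6 h in C57, 678 in DBA and 1236 in SMJ. The summed hepatocyte markers at 6 h lay above those at 0 h without overlap in SMJ, DBA and C57, and overlapped in SJL. The summed signal of 9 stellate cell and fibroblast markers at 6 h lay above that at 0 h without overlap in all 4 strains. It was 6182 to 7625 against 4238 to 4996 in C57, and 5996 to 6440 against 5443 to 5881 in SJL. No marker of these lists was at 0. The ratio of the 3′ to the 5′ actin probe set averaged 1.67 at 6 h in C57 against 1.64 at 0 h, and 1.45, 1.35 and 1.44 at 6 h in SJL, SMJ and DBA against 1.71, 1.57 and 1.77 at 0 h. The same ratio for Gapdh averaged 0.779 at 6 h in C57 against 0.766 at 0 h, and 0.715, 0.746 and 0.724 at 6 h in SJL, SMJ and DBA against 0.766, 0.719 and 0.721 at 0 h. The part of cell markers and of RNA quality in these results was not tested.

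**Figure D4:**
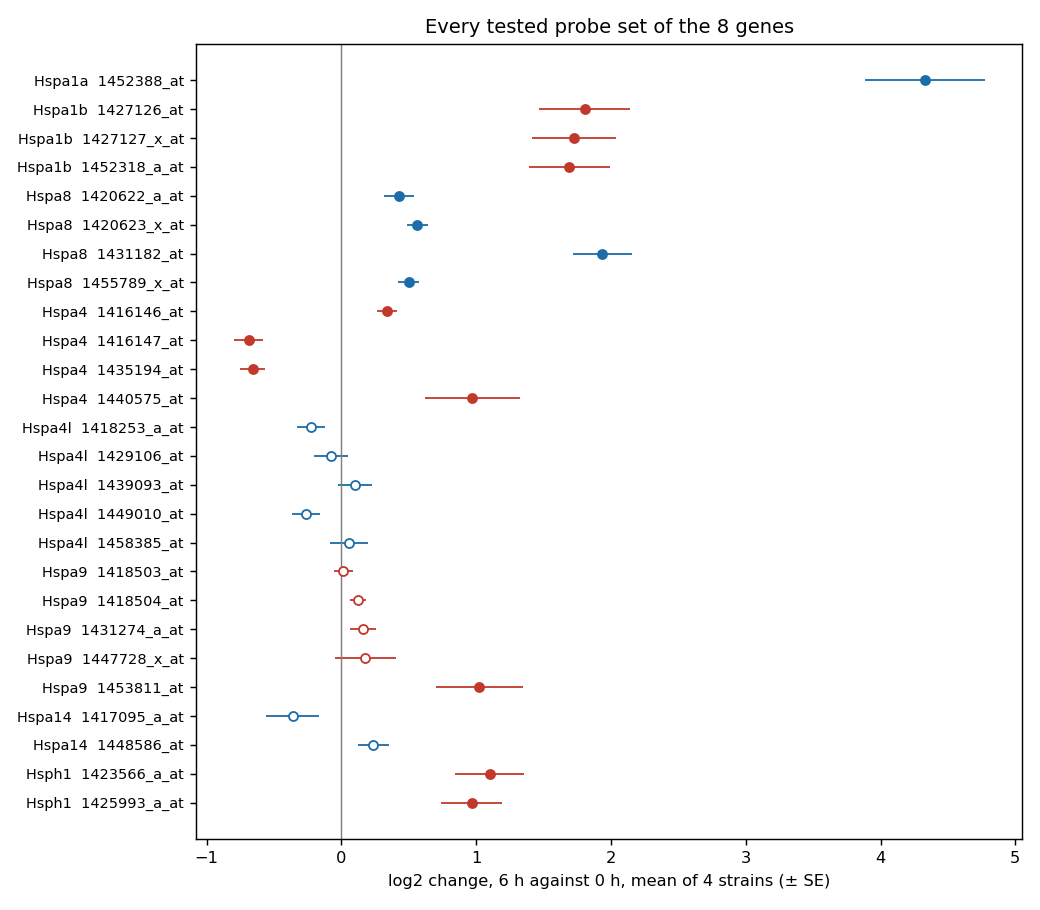
Log2 change at 6 h against 0 h, as the mean of the 4 strains with SE, of the 26 tested probe sets of the 8 genes, filled where the adjusted p over all probe sets was under 0.05; colours alternate by gene. The 3 Hspa1b and the 4 Hspa8 probe sets lie right of 0, while 2 of the 4 Hspa4 probe sets lie left of it.

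Within strains at 6 h against 0 h, 1 of the 5 Hspa4l probe sets was higher in SJL and 1 was lower in SMJ. Over the 4 strains at 6 h, 13 of 26 probe sets were higher and 2 lower, where 12.1% and 17.0% of all probe sets were. There the called probe sets of 1 gene shared a direction in Hspa1b, Hspa8 and Hsph1, and did not in Hspa4. Hspa1a and Hspa9 had only 1 called probe set each, and Hspa4l and Hspa14 had none. The 3 Hspa1b probe sets rose by 1.69 to 1.80, with r between 0.967 and 0.997 over the arrays, and correlated with that of Hspa1a at 0.811 to 0.865. The 4 Hspa8 probe sets rose by 0.43 to 1.94, the largest value from 1431182_at, whose mean in DBA was 373 ± 77.4 at 6 h against 74.4 ± 5.84 at 0 h (SD, n = 3 each). In C57 that probe set averaged 203 ± 27.0 at 6 h against 82.6 ± 11.9 at 0 h, without passing (1.27, adjusted p = 0.0674). In all, 4 names end in _x_at (1 each of Hspa1b and Hspa9 and 2 of Hspa8), which marks probes that can bind other transcripts; they changed by 1.73 for Hspa1b, by 0.56 and 0.50 for Hspa8 and, uncalled, by 0.18 for Hspa9.

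The partners of the chaperones were described from lists of known members. Of 15 J-domain genes 6 were higher and 3 lower at 6 h over the 4 strains, where 12.7% of all genes were higher and 33.1% were called in either direction, with a median of 0.07 against −0.05 for all genes. Dnajb1, the main J-domain partner of inducible HSP70, rose by 3.26 ± 0.22 (adjusted p = 9.67e-12), with a change of 4.66 for SJL livers, 3.31 for SMJ, 3.67 for DBA and 1.41 for C57 (adjusted p = 0.0376). Its mean signal in C57 was 1115 ± 429 at 6 h against 400 ± 47.2 at 0 h (SD, n = 3 each). Dnaja1 (0.56) and Dnajb4 (0.58) also rose, and Dnajc7, a J-domain protein that also binds HSP90, fell by 0.34 on the log2 scale.

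Of 13 exchange factors and adaptors 2 were higher and 2 lower, a share near the 33.1% of all genes called, with a median of 0.02. Bag3, which links HSP70 to autophagy, rose by 1.84 ± 0.17 (adjusted p = 6.13e-09), by 3.16 in SJL, 2.50 in SMJ and 1.22 in DBA, and did not pass in C57 (0.48, adjusted p = 0.440). Bag2 rose by 0.62, Bag4 was lower by −0.96 ± 0.10 (adjusted p = 4.13e-08), and St13, the HSP70-interacting protein Hip, was lower by −0.19. The 3 tested genes of the heat shock factor list, Hsf2, Hsf4 and the factor-binding Hsbp1, were not called by limma in this comparison and none had an unadjusted p under 0.05. Hsf1 was not analysed here.

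Of 11 other heat shock targets 6 were higher and 1 lower at 6 h, against 12.7% of all genes higher and 33.1% called, with a median of 0.52. Hspb8, a small heat shock protein that works with Bag3, rose by 1.53 ± 0.13 (adjusted p = 4.67e-10), Hsp90aa1, the inducible cytosolic HSP90, by 0.93, and the mitochondrial chaperonins Hspd1 and Hspe1 by 0.52 and 0.55. Among the C57 changes at 6 h, 5 of these 11 and 5 of the 15 J-domain genes were below the mean change of the other 3 strains and none above, where 2.45% of all genes were below, with medians of −0.47 and −0.48 against 0.09 for all genes. Hsp90aa1 averaged 4373 ± 365 at 6 h in C57 against 5176 ± 446 at 0 h, and 9767 ± 1837 at 6 h in SJL against 2299 ± 204 at 0 h (SD, n = 3 each). At 0 h 6 of the 11 were lower in SJL than in the other strains (median −0.45; 5.80% of all genes were lower) and 5 were higher in SMJ (median 0.38; 4.67% of all genes were higher). Of 5 tested relatives, Hspa5, the HSP70 of the endoplasmic reticulum, was higher at 6 h by 0.52 ± 0.11 (adjusted p = 0.000380), and the other 4, Hyou1 (0.03), Hspa13 (0.02) and Hspa2 (0.02) among them, were not called.

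The 3 genes whose log2 signal followed each member best over the 36 arrays, among all tested genes, were found by Pearson r and are a description, since the arrays share their 12 groups. For Hspa1a they were Pcf11 (0.936), Dnajb1 (0.934) and Hnrnph1 (0.909), and for Hspa1b Hsp90aa1 (0.904), Dnaja1 (0.864) and Hspe1 (0.840). For Hsph1 they were Dnaja1 (0.941), Hspe1 (0.903) and Dnajb4 (0.898), and for Hspa4l Stip1 (0.910), Hikeshi (0.865) and Stk25 (0.858). Hikeshi carries HSP70 into the nucleus and Stip1 joins HSP70 to HSP90. The best value for each of the other members was 0.766 for Hspa4, 0.763 for Hspa8, 0.706 for Hspa9 and 0.705 for Hspa14.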

How the data were processed

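Liver RNA of 36 mice was hybridised to 1-colour Affymetrix arrays. The authors deposited 1 intensity per probe set and array, made with MAS5 per the submitters' processing notes; the version is not given in the sources used here. The values are linear, and their mean with 2% trimmed at each end was 150.001 on each array. They were used without further scaling. The offset 2.77, the 10th percentile of all values, was added before log2. A gene was represented by its single-symbol probe set of highest mean log2 signal, passing over names ending in _x_at where another existed, and entered the test where 3 or more arrays exceeded the median, 30.8. The limma package 3.58.1 (R 4.3.3) fitted 12 group means over the 36 arrays (24 residual degrees of freedom), with 2-sided tests and Benjamini-Hochberg adjustment over 14057 genes; probe sets were also fitted alone. Strains were compared with 1 against the mean of the other 3 and by F tests. The number of arrays limits the precision.

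On simulated data with 200 changed genes per fold, the fit recovered 78.5% of 2-fold changes for the mean at 6 h and 49% for SJL at 6 h. The genes named were all members, Hsf1, Hsf2, Dnajb1 and Bag3, up to 4 genes of each other pathway list with the smallest p over the 4 strains at 6 h, and the 3 genes most like each member. Members and lists were chosen with earlier results of these data known. Promoter windows were RefSeq's (GRCm38.p6); 6 of the 8 genes had one. The p-values measure the spread between mice within groups. Nothing in the labels says how many cages or days the mice came from, so differences between cages or days could not be separated from strain or time.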

Additional observations from a re-analysis of the deposited data

Results flagged for a closer look

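Strains differed in how some members changed, by tests of the difference itself. The F test across strains and later times gave adjusted p values of 0.000933 for Hspa1b, 0.0275 for Hspa4l and 0.0104 for Hsph1. The SJL change at 6 h exceeded the mean change of the other 3 strains by a log2 of 3.07 for Hspa1b and 2.49 for Hsph1. The Hspa1b call was lost without any 1 of 28 arrays, and the Hsph1 call without any 1 of 7. Both were lost with no filter on dim signals (adjusted p = 0.0714 and 0.0572). The C57 change at 6 h lay below that of the other 3 strains by −4.42 for Hspa1b, −0.92 for Hspa8 and −1.88 for Hsph1. Here the Hspa8 call was lost without any 1 of 5 arrays, and the Hsph1 call without any 1 of 8. With no filter neither of those calls was kept (adjusted p = 0.0503 and 0.0524). Groups of 3 mice are too small for the test that singles out 1 sample.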

How the results depend on the processing

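The members called were counted again under 9 other settings and with each of the 36 arrays left out in turn. With the mean of all probe sets of a gene, the count over the 4 strains at 3 h was 4 and in C57 at 6 h 2, against 2 and 0. With only the compared groups in the fit it was 0 in SJL at 3 h, 1 in DBA at 3 h, 3 in SJL at 6 h and 1 in DBA at 6 h, against 2, 0, 5 and 2; fewer samples stand behind each spread there. The mean of all probe sets also turned Hspa4 to −0.00933 at 6 h over the 4 strains, to −0.49 in SMJ at 6 h against 0 h and to −0.68 in SMJ at 6 h against 3 h. Leaving out 1 array gave 1 to 3 members over the 4 strains at 3 h, 5 to 6 at 6 h and 1 to 3 between them. SJL had 0 to 3 at 3 h and 4 to 5 at 6 h, DBA 0 to 1 and 1 to 2, SMJ 0 to 0 and 1 to 4, and C57 0 to 0 at both times. The F tests gave 4 to 5 members at 0 h and 2 to 4 for the change. Of 2016 single values under the 9 settings 1957 kept direction and side of the threshold, 23 lost a call, 33 gained one and 3 turned; of 8640 with 1 array left out, 8459 kept both, 139 lost and 42 gained a call. Causes of these shifts were not tested. No paired analysis was possible because mice carry different numbers in each group. Dim probe sets, near the median of 30.8, limit what can be seen.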

Other observations

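Single mice differed in how many members stood highest or lowest in their group of 3. DBA169 had the lowest signal of its group in 7 of the 8 members, while it was lowest for 33.3% of all genes, and DBA168 was highest in 5 of 8, against 34.6% of all genes. SMJ56 was highest in 6 of 8 before the dose, against 38.1% of all genes. SJL2 was also highest in 6 of 8 before the dose, against 34.4% of all genes. C57226 was highest and C57230 lowest in 6 of 8 at 3 h, against 31.4% and 30.5% of all genes. SMJ96 was also lowest in 6 of 8 at 3 h, against 29.6%. SJL39, DBA158 and C57233 were lowest in 5 of 8 in their groups, against 43.1%, 28.6% and 34.1% of all genes. These mice were picked after their values were seen.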
